A study of Mus musculus with 8 samples.

Results

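The genotype effect in mouse epidermis was compared between 52 and 25 DPI, gene by gene. The quantity described is the log2 ratio of the library labelled iDKO over its control at 52 DPI minus the same ratio at 25 DPI. A value above 0 therefore means that the ratio was higher at 52 DPI, and a value below 0 that it was lower at 52 DPI. The genes were all 17258 autosomal genes with enough counts to be tested, of 17839 tested genes and 54838 genes in the count tables, and 13630 of the 17258 are protein coding. The RNA came from epidermis that was separated from mouse skin with trypsin. The groups were Ovol1/2 iDKO at 52 DPI, control at 52 DPI, Ovol1/2 iDKO at 25 DPI and control at 25 DPI, with 2 biological replicates each and 8 libraries in all, and iDKO and DPI are written as the labels give them. The sources used here do not name the driver of the deletion, the age or strain of the mice, or any treatment shared by the groups. The libraries held 9824307 to 50711381 counts.

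OVOL1 and OVOL2 are zinc finger transcription factors of epithelia, known mostly as repressors that hold keratinocytes in an epithelial, differentiating state. The epidermis is renewed from basal keratinocytes that hold on to the basement membrane through integrins and laminin, and in mice it also houses T cells, most of them bearing gamma delta receptors, and Langerhans cells. Keratinocytes answer injury and inflammation with early response genes, prostaglandin synthesis, ligands of the EGF receptor and feedback inhibitors of NF-kappaB.

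Each library labelled iDKO was set beside the control of its time and replicate number, which gave 4 pairs, and levels are given as CPM, counts scaled to library size after TMM adjustment. Levels in the replicate 1 and replicate 2 libraries often lie far apart, so the pair is the unit of comparison, and the values of each group are given with replicate 1 before replicate 2. The counts of replicate 2 libraries were stranded (95.37% to 95.73% on the second strand) and those of replicate 1 libraries were not (49.76% to 49.97%). A difference between replicate numbers therefore cannot be told apart from one between kinds of library. The basal keratins Krt5 and Krt14 were at 5244 to 17746 CPM and 6661 to 21605 CPM over the 8 libraries, and Krt1 and Krt10 of the suprabasal layers at 921 to 2721 CPM and 1573 to 4762 CPM. The granular layer genes Lor and Flg were low, at 2.16 to 16.9 CPM and 0.10 to 0.91 CPM. All 4 libraries at 52 DPI held no transcripts of the Y-linked genes examined and all 4 at 25 DPI held them, while Xist ranged over 131 to 1139 CPM among the 52 DPI libraries and 0.119 to 0.342 CPM among those of 25 DPI. Sex and time cannot be told apart in these libraries, so a difference between the times is also a difference between sexes. Ovol1 was at 99.0 and 193 CPM in the iDKO-labelled libraries at 52 DPI, against 62.7 and 157 CPM in their controls, and at 148 and 204 CPM in those labelled iDKO at 25 DPI, against 135 and 36.3 CPM in their controls. Ovol2 was at 22.3 and 9.16 CPM with the iDKO label and 21.3 and 7.52 CPM in control at 52 DPI, and at 44.6 and 16.7 CPM with the iDKO label and 24.9 and 11.6 CPM in control at 25 DPI. Both genes were higher in the library labelled iDKO of all 4 pairs, so their counts do not check the labels, and directions below are those of the labelled libraries. The difference between the times was -0.84 (SE 0.73) for Ovol1 and -0.51 (SE 0.34) for Ovol2, and neither was called. The value for Ovol1 turned to 0.39 without iDKO replicate 2 at 25 DPI and to 0.33 without control replicate 2 at 25 DPI.

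The comparison asks whether the genotype effect differed between the times. With edgeR's quasi-likelihood test and the pairs as blocks, 0 of the 17258 genes were called at a Benjamini-Hochberg adjusted p under 0.05 over all tested genes (0.0% called), the smallest adjusted p being 0.793, and limma-voom called 0 as well. At an unadjusted p under 0.05 the difference was higher at 52 DPI for 483 genes (2.8%) and lower for 614 (3.56%), 1097 in all (6.36%). With upper quartile scaling the split was 613 higher and 479 lower, and with no pairing in the fit 125 higher and 10 lower. DESeq2 with the same blocks called 37 genes (0.214%), of which 12 were higher at 52 DPI (0.0695%) and 25 lower (0.145%). Log2 differences and SEs below are those of edgeR with the blocks, and a gene is said to be called only where DESeq2 with the blocks called it. DESeq2 with no replicate block called 0. The calls also changed when single libraries were left out. Leaving out 1 library drops its pair, so the spread is then estimated from the pairs of the other time alone. DESeq2's log2 differences in such fits ran from -3.47 to -2.65 for Thbs1, from -1.70 to -1.60 for Taf4b and from 2.21 to 4.35 for Cxcr6. Whether calls changed through the left-out values or through the estimate of the spread was not tested.

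The 25 called genes that were lower at 52 DPI were led, by adjusted p, by Thbs1, Epgn and Nod2. For 24 of them the genotype effect at 25 DPI was above 0, and for 1, Zc3h12a, the effect at 52 DPI was above 0 as well. The sign turned round in all 4 pairs for 18 of the 25, against 8.4% of all genes in this order. For 8 it did so by more than 1.5-fold in every pair, against 0.18% of all. The genes were called on these same pairs, so such turns were largely fixed by the choice. DESeq2 called 8 of the 25 at 52 DPI, where 0.203% of genes were called, and 18 at 25 DPI, where 0.556% were called. edgeR called 0 genes at either time (0.0%), with an unadjusted p under 0.05 for 4.32% of genes at 52 DPI and 6.58% at 25 DPI.

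Thbs1 (ENSMUSG00000040152, GRCm38 chromosome 2, 118111876 to 118127133, plus strand) encodes thrombospondin 1, a matrix glycoprotein that can activate latent TGF-beta. It was at 400.1 and 476 CPM in the iDKO-labelled libraries at 52 DPI, against 897 and 1932 CPM in their controls, and at 184 and 3633 CPM in those labelled iDKO at 25 DPI, against 50.8 and 1720 CPM in control. The libraries labelled iDKO lay below both controls at 52 DPI, while at 25 DPI each lay above its own control and the groups overlapped. The difference was -3.06 (SE 0.49) and was called (DESeq2 adjusted p = 2.39e-06). Thbs1 was also called within each time by DESeq2, at 52 DPI with an adjusted p of 0.0039 and at 25 DPI with one of 0.0071, in opposite directions. Itgb6 (chromosome 2, 60598292 to 60722643, minus strand) encodes an epithelial integrin subunit that also activates latent TGF-beta. It was at 24.9 and 10.3 CPM in the iDKO-labelled libraries at 52 DPI, against 55.4 and 23.9 CPM in their controls, and at 12.9 and 46.2 CPM in those labelled iDKO at 25 DPI, against 8.63 and 27.2 CPM in control. Both pairs at 52 DPI gave close ratios, -1.15 and -1.20 on the log2 scale, and the pairs at 25 DPI gave 0.57 and 0.76. The difference was -1.86 (SE 0.30; DESeq2 adjusted p = 0.00774), but DESeq2 called Itgb6 in 0 of the 8 fits without 1 library, where its lowest adjusted p was 0.0804.

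Ptgs2 (ENSMUSG00000032487, chromosome 1, 150100031 to 150108227, plus strand) encodes the inducible cyclooxygenase of prostaglandin synthesis. It was at 34.7 and 17.5 CPM in the iDKO-labelled libraries at 52 DPI, against 72.1 and 105 CPM in their controls, and at 11.4 and 97.5 CPM in those labelled iDKO at 25 DPI, against 3.86 and 45.5 CPM in control. The groups stood apart at 52 DPI and overlapped at 25 DPI, where each pair was higher in the library labelled iDKO. The difference was -3.11 (SE 0.54; DESeq2 adjusted p = 0.000235). Ch25h (ENSMUSG00000050370, chromosome 19, 34473778 to 34475164, minus strand) encodes the hydroxylase that makes an oxysterol from cholesterol. It was at 5.50 and 2.03 CPM in the iDKO-labelled libraries at 52 DPI, against 18.4 and 18.1 CPM in their controls, and at 7.30 and 11.8 CPM in those labelled iDKO at 25 DPI, against 3.99 and 3.79 CPM in control. Here the groups did not overlap at either time, and their order was opposite at the 2 times. The difference was -3.68 (SE 0.64; DESeq2 adjusted p = 0.000206). Epgn (ENSMUSG00000035020, chromosome 5, 91027464 to 91035215, plus strand) encodes epigen, a ligand of the EGF receptor. It was at 37.8 and 31.0 CPM in the iDKO-labelled libraries at 52 DPI, against 71.6 and 96.5 CPM in their controls, and at 62.5 and 228 CPM in those labelled iDKO at 25 DPI, against 26.3 and 106 CPM in control. The log2 ratios of its pairs were -0.92 and -1.63 at 52 DPI, and at 25 DPI both pairs passed 2-fold the other way. The difference was -2.45 (SE 0.34; DESeq2 adjusted p = 5.63e-05), and DESeq2 called Epgn at 52 DPI (adjusted p = 0.015) and at 25 DPI (adjusted p = 0.027).

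Nod2 (chromosome 8, 88647315 to 88688474, plus strand), a receptor for fragments of bacterial cell wall, was at 25.8 and 51.5 CPM in the iDKO-labelled libraries at 52 DPI, against 20.9 and 113 CPM in their controls, and at 20.4 and 243 CPM in those labelled iDKO at 25 DPI, against 3.40 and 34.5 CPM in control. Its pairs at 52 DPI split, at log2 ratios of 0.30 and -1.14, while the pairs at 25 DPI gave 2.56 and 2.81. The difference was -3.13 (SE 0.51; DESeq2 adjusted p = 9.3e-05), and within the times DESeq2 called Nod2 at 25 DPI only (adjusted p = 7.7e-08). Zc3h12a encodes an RNase that degrades cytokine messages. It was at 123 and 231 CPM in the iDKO-labelled libraries at 52 DPI, against 86.9 and 240.5 CPM in their controls, and at 51.1 and 284 CPM in those labelled iDKO at 25 DPI, against 13.7 and 53.5 CPM in control. The groups overlapped at both times, and the genotype ratio was near 1 at 52 DPI and above 1 in both pairs at 25 DPI. The difference was -1.94 (SE 0.35; DESeq2 adjusted p = 0.00587).

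Nfkbiz, which encodes a nuclear IkappaB protein induced by IL-17 in keratinocytes, was at 691 and 524 CPM in the iDKO-labelled libraries at 52 DPI, against 744 and 705 CPM in their controls, and at 341 and 908 CPM in those labelled iDKO at 25 DPI, against 155 and 355 CPM in control. Its ratios were near or below 1 at 52 DPI and above 2-fold in both pairs at 25 DPI, with a difference of -1.51 (SE 0.34; DESeq2 adjusted p = 0.0155). Tnfaip3 and Icam1 lie outside the rule by which genes were named and were picked after their values were seen. Tnfaip3, the ubiquitin-editing inhibitor of NF-kappaB also called A20, was at 276 and 399 CPM in the iDKO-labelled libraries at 52 DPI, against 281 and 866 CPM in their controls, and at 156 and 828 CPM in those labelled iDKO at 25 DPI, against 68.6 and 154 CPM in control. Icam1, an adhesion molecule for leukocytes, was at 271 and 118 CPM with the iDKO label against 302 and 240.2 CPM in control at 52 DPI, and at 160.5 and 584 CPM with the iDKO label against 77.9 and 184 CPM in control at 25 DPI. In both genes each library labelled iDKO was below its control at 52 DPI and above it at 25 DPI. The differences were -2.39 (SE 0.56) for Tnfaip3 and -1.95 (SE 0.42) for Icam1.

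**Figure D1:**
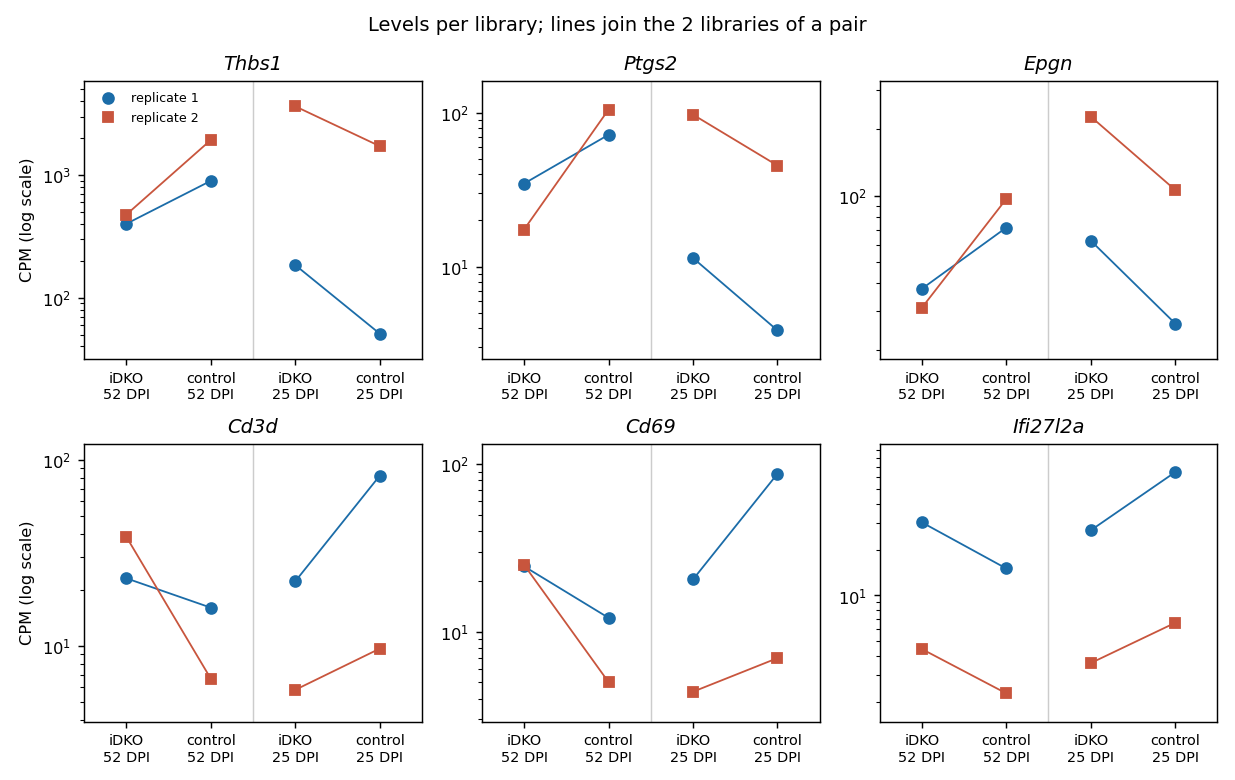
CPM on a log scale in each library for 6 of the called genes, with iDKO left of control and 52 DPI left of 25 DPI. Circles are replicate 1 and squares replicate 2, and lines join the libraries of a pair. For Thbs1, Ptgs2 and Epgn the lines go up to the control at 52 DPI and down to it at 25 DPI, and for Cd3d, Cd69 and Ifi27l2a the slopes are the other way round.

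Other genes in this direction take part in transcription, transport and the clock. Csrnp1, a nuclear protein induced by axin, was at 218 and 362 CPM in the iDKO-labelled libraries at 52 DPI, against 273 and 671 CPM in their controls, and at 179 and 729 CPM in those labelled iDKO at 25 DPI, against 65.0 and 256 CPM in control. Sik1, a kinase that restrains transcription driven by cyclic AMP, was at 185 and 419 CPM with the iDKO label against 293 and 919 CPM in control at 52 DPI, and at 164 and 926 CPM with the iDKO label against 68.7 and 549 CPM in control at 25 DPI. Both were below control in each pair at 52 DPI and above it in each pair at 25 DPI, by a difference of -2.09 (SE 0.34) for Csrnp1 and -1.90 (SE 0.37) for Sik1. Flvcr1, a transporter of heme and choline, differed by -2.29 (SE 0.38). Slc25a25, a mitochondrial carrier of adenine nucleotides, differed by -2.09 (SE 0.40), Arl5b, a small GTPase, by -1.62 (SE 0.28), and the zinc finger factor Klf16 by -1.66 (SE 0.28). Per1, a repressor of the circadian clock, was at 84.8 and 421 CPM in the iDKO-labelled libraries at 52 DPI, against 72.7 and 495 CPM in their controls, and at 115 and 521 CPM in those labelled iDKO at 25 DPI, against 34.3 and 208 CPM in control. Its 52 DPI pairs lay to both sides of a ratio of 1, and the difference was -1.54 (SE 0.34).

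The remaining called genes with a lower effect at 52 DPI are named here because they were called, outside the rule except for Gm8210. Midn, Mill1, Taf4b and Tent5b had differences of -1.51, -1.52, -1.64 and -2.42. The lincRNA Gm26809 had one of -1.75. Npy1r, a receptor for neuropeptide Y, was at 0.126 and 0.785 CPM in the iDKO-labelled libraries at 52 DPI, against 2.93 and 4.94 CPM in their controls, and at 8.33 and 3.41 CPM in those labelled iDKO at 25 DPI, against 2.35 and 3.87 CPM in control. It was below both controls at 52 DPI, and at 25 DPI only the replicate 1 pair was higher in the library labelled iDKO. For a pair of genes 1 replicate number carried the value. Gm8210, a processed pseudogene whose reads may belong to its parent gene, was at 0 to 0.0741 CPM in all replicate 1 libraries, and in replicate 2 at 0.916 CPM in the library labelled iDKO at 52 DPI, against 26.3 CPM in their controls, and at 28.0 CPM in that at 25 DPI, against 30.8 CPM in control. Gm24245, annotated as a miRNA gene, was at 18.7 CPM in the replicate 1 library labelled iDKO at 52 DPI, against 19.9 CPM in their controls, and at 120.4 CPM in that at 25 DPI, against 8.24 CPM in control, with 0 to 0.145 CPM in the replicate 2 libraries.

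Promoters of the called genes were taken from RefSeq (GRCm38.p6), as the 250 bases before the annotated start and the 50 after it. Of the 25 called genes with a lower effect at 52 DPI 17 had an entry, and of the 12 with a higher effect 6 did. Coding genes that reversed past 1.5-fold in every pair, lower at 52 DPI, were ranked by the size of their smallest log2 pair ratio. Thbs1 ranked first but had no entry. The windows of Ptgs2, Epgn and Ch25h, which followed, are shown. They lie at chr1:150099781-150100080 on the plus strand, chr5:91027267-91027566 on the plus strand and chr19:34475099-34475398 on the minus strand, and are written 5′ to 3′ along the gene. Capitals mark matches to the short form of the cyclic AMP response element, TGACG, and to the E-box CACCTG, on either strand.
Ptgs2: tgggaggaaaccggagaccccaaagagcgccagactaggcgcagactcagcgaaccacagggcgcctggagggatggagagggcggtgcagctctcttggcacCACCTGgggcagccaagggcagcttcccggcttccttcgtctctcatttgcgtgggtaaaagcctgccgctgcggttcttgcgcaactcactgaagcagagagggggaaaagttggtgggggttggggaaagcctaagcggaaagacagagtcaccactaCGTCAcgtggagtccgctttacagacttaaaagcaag
Epgn: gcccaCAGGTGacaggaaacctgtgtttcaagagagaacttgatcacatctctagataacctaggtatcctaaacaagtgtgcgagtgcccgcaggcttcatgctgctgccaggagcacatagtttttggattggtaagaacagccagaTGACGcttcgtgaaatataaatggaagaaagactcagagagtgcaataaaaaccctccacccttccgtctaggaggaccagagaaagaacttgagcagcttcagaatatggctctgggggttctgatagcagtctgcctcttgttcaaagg
Ch25h: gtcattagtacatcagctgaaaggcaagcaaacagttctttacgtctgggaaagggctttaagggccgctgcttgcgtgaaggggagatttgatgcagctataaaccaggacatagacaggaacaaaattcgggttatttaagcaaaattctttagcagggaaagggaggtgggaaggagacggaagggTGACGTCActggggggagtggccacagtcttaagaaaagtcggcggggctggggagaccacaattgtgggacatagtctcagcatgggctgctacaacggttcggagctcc

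The short element TGACG was found on either strand in 10 of the 17 windows of genes with a lower effect (58.8%), in 1 of the 6 with a higher effect (16.7%) and in 21.2% of all 25748 autosomal promoters in the table. In Ptgs2 it lies 13 bases after the annotated start, in Epgn 101 bases before it, and in Ch25h 2 overlapping copies form the palindrome whose first base is 61 before the start. The E-box CACCTG was in 5 of 17 (29.4%), 2 of 6 (33.3%) and 20.3% of all. The AP-1 motif TGACTCA was in 2 of 17 (11.8%), 0 of 6 and 5.22% of all. The core CCGTTA, known from Ovol proteins, was in 0 of 17, 0 of 6 and 2.65% of all. These are matches of letters in short windows, counted with the gene sets already known, and no test was made of them.

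The 12 called genes with a higher effect at 52 DPI included chains of the T cell receptor complex and other genes known from lymphocytes, and 2 of the 12 belong to the T cell list. All 12 were above their control in both pairs at 52 DPI and below it in both pairs at 25 DPI, against 8.14% of all genes. For 6 of them every pair passed 1.5-fold, against 0.493% of all. They were called on these same pairs, so this was largely fixed by the choice. DESeq2 called 0 of the 12 at 52 DPI and 2 at 25 DPI. Cd3d (ENSMUSG00000032094, chromosome 9, 44981786 to 44987339, plus strand), a chain of the T cell receptor complex, was at 23.1 and 38.6 CPM in the iDKO-labelled libraries at 52 DPI, against 16.1 and 6.66 CPM in their controls, and at 22.2 and 5.81 CPM in those labelled iDKO at 25 DPI, against 82.2 and 9.67 CPM in control. The groups stood apart at 52 DPI and overlapped at 25 DPI, where control replicate 1 was the highest of the 8 libraries. The difference was 2.81 (SE 0.73; DESeq2 adjusted p = 0.0414). Cd69 (ENSMUSG00000030156, chromosome 6, 129267325 to 129275436, minus strand), an activation and residency marker of lymphocytes, was at 24.6 and 25.1 CPM in the iDKO-labelled libraries at 52 DPI, against 12.1 and 5.01 CPM in their controls, and at 20.5 and 4.39 CPM in those labelled iDKO at 25 DPI, against 87.7 and 6.97 CPM in control. It had the same layout as Cd3d, with a difference of 3.03 (SE 0.63; DESeq2 adjusted p = 0.00681).

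Cxcr6, a chemokine receptor of resident T cells, was at 32.1 and 24.7 CPM in the iDKO-labelled libraries at 52 DPI, against 21.9 and 4.15 CPM in their controls, and at 15.9 and 4.10 CPM in those labelled iDKO at 25 DPI, against 111 and 6.63 CPM in control. Ms4a4b, a membrane protein of T cells, was at 10.4 and 7.33 CPM with the iDKO label against 5.49 and 1.25 CPM in control at 52 DPI, and at 10.3 and 0.835 CPM with the iDKO label against 78.1 and 1.59 CPM in control at 25 DPI. In both genes control replicate 1 at 25 DPI was the highest library, and the replicate 2 pairs alone gave the same directions. The differences were 3.26 (SE 0.90) for Cxcr6 and 3.67 (SE 0.83) for Ms4a4b. Rac2, a small GTPase of blood cells, differed by 3.28 (SE 0.88), Klrd1, a subunit of natural killer receptors, by 2.49 (SE 0.57), and Ltb, a cytokine of the TNF family picked after its values were seen, by 3.65 (SE 1.05). Tcrg-C2, a constant segment of the gamma receptor chain with close copies in the genome, differed by 3.30 (SE 0.65), and its reads may be shared with those copies. Fxyd5, a regulator of the sodium pump, and Rinl, a guanine nucleotide exchange factor, differed by 2.70 (SE 0.71) and 2.83 (SE 0.70).

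Ifi27l2a (chromosome 12, 103442167 to 103443680, minus strand), an interferon-induced gene with a close neighbouring copy, was at 30.3 and 4.45 CPM in the iDKO-labelled libraries at 52 DPI, against 15.1 and 2.27 CPM in their controls, and at 26.8 and 3.59 CPM in those labelled iDKO at 25 DPI, against 64.7 and 6.61 CPM in control. All 4 of its pair ratios were of about the same size, 1.00 and 0.94 at 52 DPI and -1.27 and -0.86 at 25 DPI. The difference was 2.07 (SE 0.35; DESeq2 adjusted p = 0.0101).

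**Figure D2:**
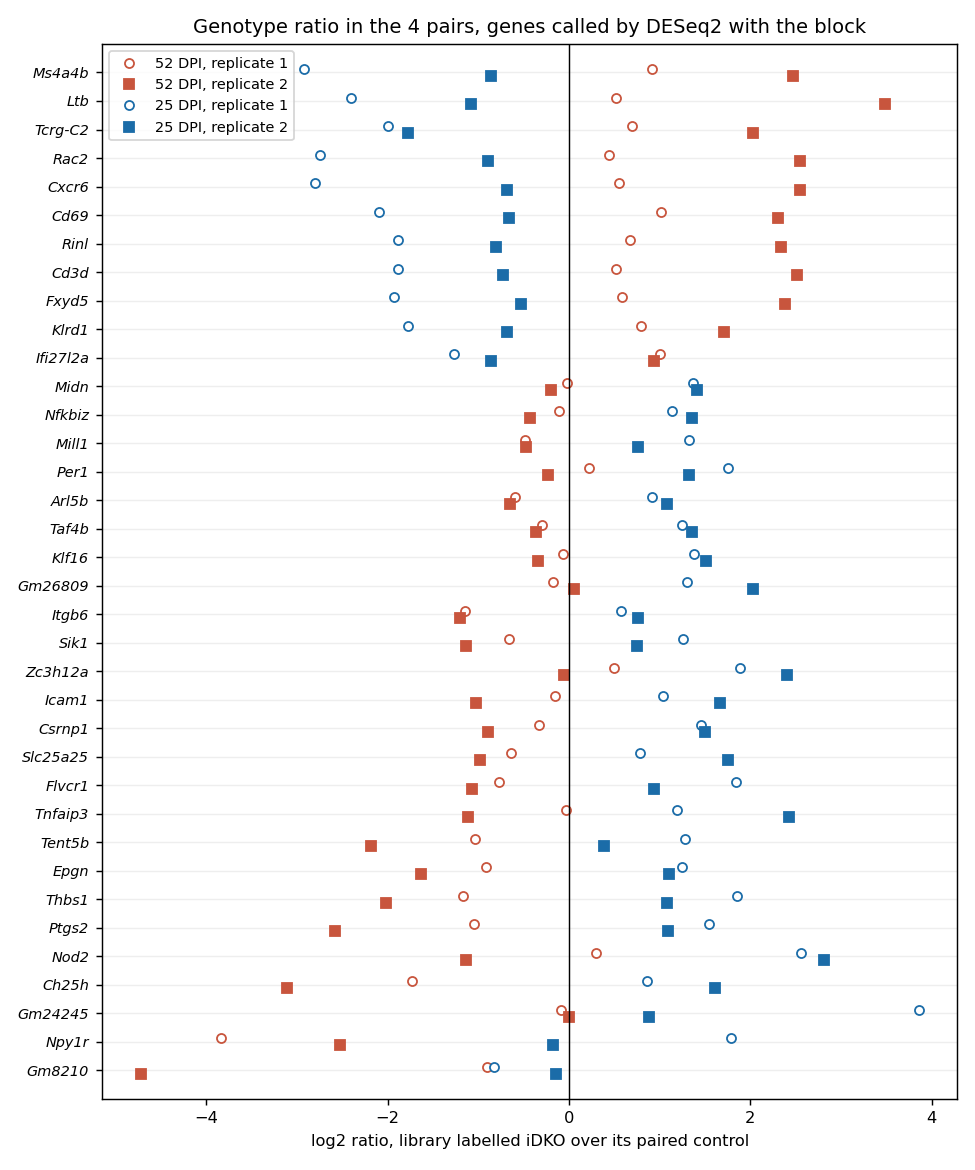
Log2 genotype ratio (library labelled iDKO over its paired control) in each of the 4 pairs, for 36 of the 37 genes called by DESeq2 with the blocks, ordered by the edgeR difference. Red symbols are 52 DPI and blue 25 DPI, with open circles for replicate 1 and filled squares for replicate 2. The 11 genes at the top have both red symbols right of 0 and both blue ones left of it. Of the 25 below, 18 show the mirror image.

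The largest median difference of any list, 3.62, was that of the erythroid list, with 6 tested genes, 5 above 0 and 1 below. Its pairs disagreed in sign at both times. The median log2 ratios were -0.47 in replicate 1 and 3.01 in replicate 2 at 52 DPI, and -4.43 and 0.89 at 25 DPI. The T cell list gave the widest shift of any list with more than 6 tested members. It held 30 tested genes, and the difference was above 0 in all 30, against 48.2% of all autosomal genes, and 24 of the 30 had an unadjusted edgeR p under 0.05, against 2.8% of all. The median difference was 2.46, with members from 0.33 to 3.65, against -0.03 over all autosomal genes. All 30 were higher in the library labelled iDKO in both pairs at 52 DPI, and 26 of the 30 were also lower in both pairs at 25 DPI, against 8.14% of all genes. The median genotype effect was 1.33 at 52 DPI and -1.14 at 25 DPI. The pairs were uneven, with median log2 ratios of 0.33 in replicate 1 and 2.39 in replicate 2 at 52 DPI. At 25 DPI they were -1.79 in replicate 1 and -0.55 in replicate 2. DESeq2 called 2 members, Cd3d and Cxcr6. The receptor constant segment Trbc1 was at 12.8 and 17.3 CPM in the iDKO-labelled libraries at 52 DPI, against 10.05 and 4.39 CPM in their controls, and at 10.6 and 3.99 CPM in those labelled iDKO at 25 DPI, against 41.9 and 6.67 CPM in control. It was not called (difference 2.49, SE 0.69). The lists, this one included, were drawn up with earlier results of these libraries known and are no independent evidence.

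Summed over the list, the 31 T cell genes in the tables reached 801 and 1386 CPM in the iDKO-labelled libraries at 52 DPI, against 633 and 316 CPM in their controls, and 615 and 402 CPM in those labelled iDKO at 25 DPI, against 1921 and 481 CPM in control. Control replicate 1 at 25 DPI and iDKO replicate 2 at 52 DPI were the highest. At most 1 of the 31 genes was at 0 in any library. In whole tissue a larger share of T cells and more RNA per T cell cannot be told apart. Control replicate 1 at 25 DPI also held more melanocyte transcripts, summed at 445 CPM against 95.3 to 172 CPM in the other 7 libraries, and more of the erythroid list, at 112 CPM against 1.82 to 19.5 CPM. It was the highest library for the summed Langerhans cell list as well, at 2110 CPM against 420 to 1786 CPM, and for that of adipocytes, at 80.1 CPM against 14.1 to 35.6 CPM. The macrophage and monocyte list summed to 30760 CPM in it, against 3617 to 16760 CPM. Its members Fcer1g, Cx3cr1 and Ccr2 were at 58.0, 10.8 and 3.60 CPM in that control. Most of this sum thus came from other members, and which cells made them was not tested. The part of cell content in the genes with a higher or a lower effect at 52 DPI was not tested. The replicate 2 libraries, which do not include that control, gave a median difference of 2.81 for the T cell list, and the replicate 1 libraries 2.11. The median was 1.49 without iDKO replicate 2 at 52 DPI and 1.48 without control replicate 2 at 52 DPI.

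Other immune lists were less even. Of the 16 tested genes of macrophages and monocytes 14 had a difference above 0, against 48.2% of all genes. An unadjusted p under 0.05 was seen in 3, all upward, against 2.8% of all. The list median was 1.00, with 1.75 in the replicate 1 libraries and 0.18 in the replicate 2 libraries. Fcer1g, the shared gamma chain of Fc receptors, was at 23.2 and 25.3 CPM in the iDKO-labelled libraries at 52 DPI, against 19.5 and 4.78 CPM in their controls, and at 20.9 and 5.30 CPM in those labelled iDKO at 25 DPI, against 58.0 and 7.03 CPM in control (difference 2.22, SE 0.75, not called). It was higher than control in both pairs at 52 DPI and lower in both at 25 DPI. Among the 17 Langerhans cell genes the medians of the 2 replicate numbers were opposite, 1.77 in replicate 1 and -0.96 in replicate 2, and 0 members had an unadjusted p under 0.05. The type I interferon list held 20 members above 0 and 10 below, where 48.2% of all genes were above 0, with a median of 0.48. It held 3 members with an unadjusted p under 0.05, 2 upward and 1 downward, against 6.36% of all genes. Its median was 0.85 in the replicate 1 libraries and 0.06 in the replicate 2 libraries, and 0.15 to 0.91 with 1 library left out. Bst2, a restriction factor that tethers virions, was at 16.8 and 13.5 CPM in the iDKO-labelled libraries at 52 DPI, against 8.82 and 7.21 CPM in their controls, and at 22.7 and 6.53 CPM in those labelled iDKO at 25 DPI, against 44.7 and 8.80 CPM in control. Its groups stood apart at 52 DPI, and it was not called (difference 1.62, SE 0.38). The type 17 list was divided. Of its 19 members 3 passed an unadjusted p of 0.05 upward, against 2.8% of all genes, among them the gamma delta receptor segment Trdv4 (2.27, SE 0.67). Downward 4 passed it, against 3.56% of all, among them the called Nfkbiz and Zc3h12a.

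**Figure D3:**
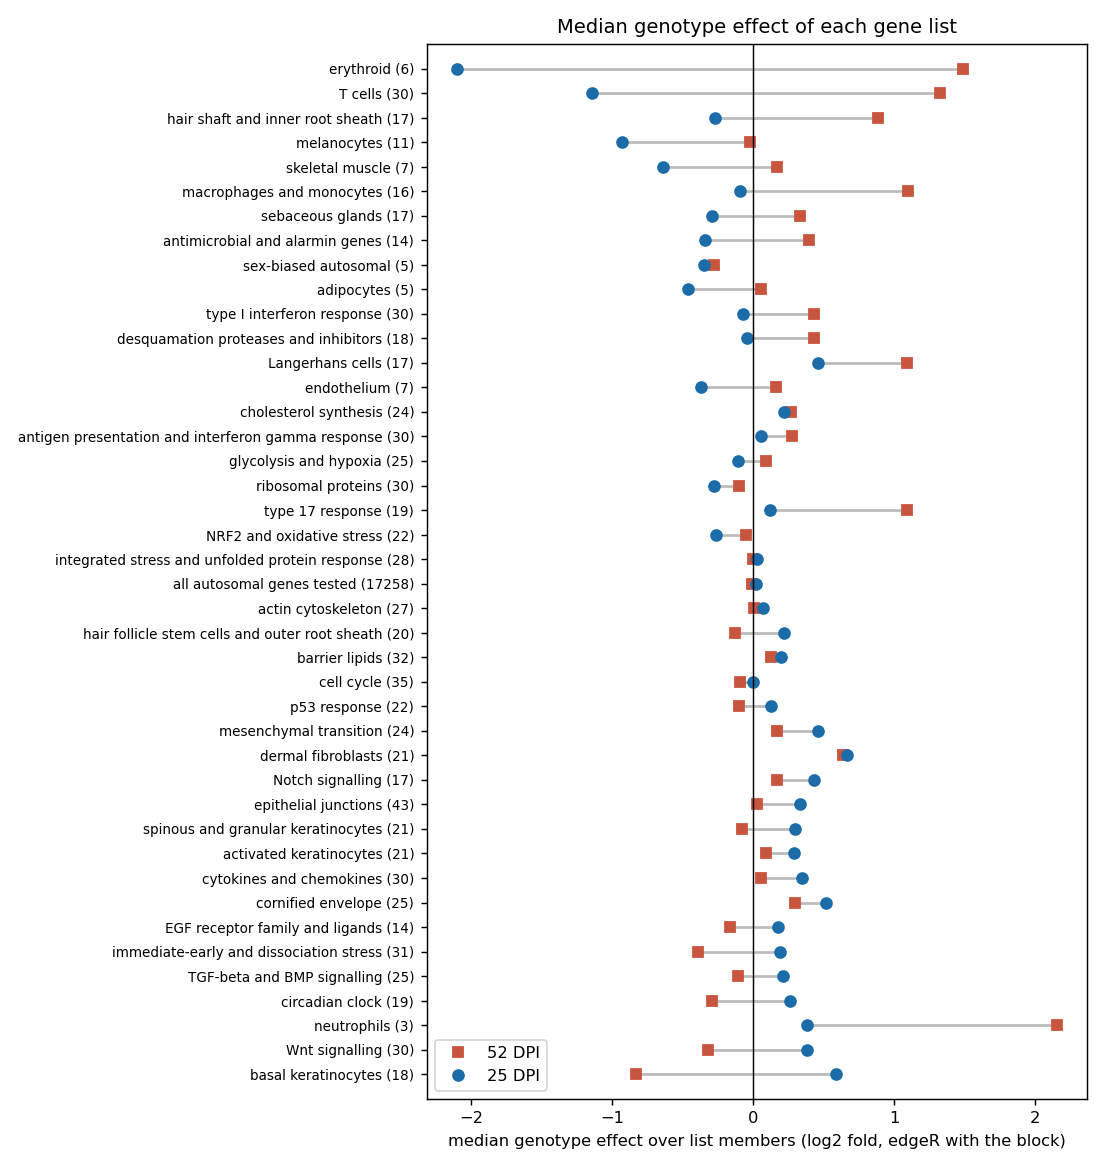
Median genotype effect (log2 fold, edgeR with the blocks) over the tested members of each gene list, at 52 DPI (red squares) and at 25 DPI (blue circles), with the number of tested members in brackets and lists ordered by the median difference. All autosomal genes lie near 0 at both times. The T cell medians lie at 1.33 and -1.14, and the basal keratinocyte medians at -0.83 and 0.59.

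Genes of basal keratinocytes went the other way from the T cell list. The summed level of Krt5, Krt14, Krt1, Krt10, Lor and Flg was lowest in the libraries with the highest T cell sums. It was 22390 CPM in control replicate 1 at 25 DPI and 21040 CPM in iDKO replicate 2 at 52 DPI, against 31180 to 39010 CPM in the others. Whether both lists follow the same change in cell content was not tested. Of 18 tested genes 17 had a lower effect at 52 DPI, against 51.8% of all autosomal genes, and 5 of them an unadjusted p under 0.05, against 3.56% of all. DESeq2 called 0. The median difference was -1.15, with a median effect of -0.83 at 52 DPI and 0.59 at 25 DPI. At 52 DPI 0 of the 18 were higher in the library labelled iDKO in the replicate 2 pair and 2 in the replicate 1 pair, and at 25 DPI 15 were higher in the replicate 1 pair and 8 in the replicate 2 pair. Itga3, a laminin-binding integrin subunit, was at 239.9 and 181 CPM in the iDKO-labelled libraries at 52 DPI, against 291 and 489 CPM in their controls, and at 131 and 575 CPM in those labelled iDKO at 25 DPI, against 38.4 and 444 CPM in control. It stood below control at 52 DPI, and at 25 DPI the excess over control was mostly in the replicate 1 pair. The difference was -1.92 (SE 0.59), and that of the cadherin gene Cdh3 was -1.32 (SE 0.45), neither called. The list median was -0.71 without either replicate 2 library at 52 DPI, -0.67 without either replicate 1 library at 25 DPI, and -1.74 and -1.80 without iDKO or control replicate 2 at 25 DPI.

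Differentiation lists had smaller medians. Of all genes 51.8% had a lower effect at 52 DPI, and 3.56% did so with an unadjusted p under 0.05. The spinous and granular list had 15 of 21 members lower and a median of -0.30, with 0 past an unadjusted p of 0.05. The cornified envelope list had 17 of 25 lower, with 2 past that p, both downward. The cornified envelope medians were 0.61 in replicate 1 and -0.98 in replicate 2, and those of the spinous and granular list -0.13 and -0.31. Krt6a, a keratin of wounded and hyperproliferative epidermis with the near copy Krt6b, was at 71.5 and 316 CPM in the iDKO-labelled libraries at 52 DPI, against 44.1 and 146 CPM in their controls, and at 28.2 and 20.5 CPM in those labelled iDKO at 25 DPI, against 60.1 and 25.0 CPM in control. Krt16, which pairs with it, was at 117 and 58.3 CPM with the iDKO label against 88.7 and 150.4 CPM in control at 52 DPI, and at 56.8 and 94.5 CPM with the iDKO label against 36.1 and 29.0 CPM in control at 25 DPI. The differences were 1.59 (SE 0.37) for Krt6a and -1.67 (SE 0.64) for Krt16, so these partners had opposite signs, and neither was called. In the desquamation list 13 of 18 members were above 0, against 48.2% of all genes, and the kallikrein Klk5 had a difference of 1.45 (SE 0.57, not called).

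Over all autosomal genes 51.8% had a lower effect at 52 DPI, and 3.56% did so with an unadjusted p under 0.05. In the TGF-beta and BMP list 21 of 25 genes had a lower effect and 7 an unadjusted p under 0.05, all downward, with a median of -0.57 that was -0.50 and -0.51 in the 2 replicate numbers. Thbs1 was the called member. Bmp2, a BMP ligand, was at 65.7 and 33.8 CPM in the iDKO-labelled libraries at 52 DPI, against 109 and 86.3 CPM in their controls, and at 48.2 and 94.0 CPM in those labelled iDKO at 25 DPI, against 22.7 and 74.1 CPM in control. Its groups stood apart at 52 DPI and overlapped at 25 DPI, with a difference of -1.74 (SE 0.38, not called). In the Wnt list 22 of 30 genes were lower, against 51.8% of all, and 7 had an unadjusted p under 0.05, all downward, with a median of -0.69. Among the ligands Wnt3 had a difference of -1.83 (SE 0.46), Wnt10b of -1.44 (SE 0.38) and Wnt5a of -1.38 (SE 0.37), none called. Wnt3 was at 141 and 33.8 CPM in the iDKO-labelled libraries at 52 DPI, against 180.3 and 106 CPM in their controls, and at 161 and 186 CPM in those labelled iDKO at 25 DPI, against 80.5 and 117 CPM in control. It lay below control in both pairs at 52 DPI and above both controls at 25 DPI. In the list of the EGF receptor and its ligands 10 of 14 genes were lower, and Epgn was the 1 member with an unadjusted p under 0.05 (7.1%, against 3.56% of all genes). The mesenchymal transition list held 24 tested genes, 10 with a higher effect at 52 DPI and 14 with a lower one. Upward, 1 member passed an unadjusted p of 0.05, Vim (4.2%, against 2.8% of all genes). Downward 5 passed it, among them Itga5 (20.8%, against 3.56% of all genes). Vim, the intermediate filament of mesenchymal and immune cells, was at 160.4 and 349.97 CPM in the iDKO-labelled libraries at 52 DPI, against 53.3 and 88.7 CPM in their controls, and at 108 and 171 CPM in those labelled iDKO at 25 DPI, against 169 and 83.0 CPM in control (difference 1.58, SE 0.56, not called).

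Early response genes, which tissue dissociation also induces, were counted as a list, since trypsin had been used to isolate the epidermis. Of 31 genes 26 had a lower effect at 52 DPI, against 51.8% of all autosomal genes, 4 of them with an unadjusted p under 0.05, against 3.56% of all. Upward, 1 had such a p, against 2.8% of all. The median was -0.54, and it was -0.29 in the replicate 1 libraries and -1.10 in the replicate 2 libraries. Fosl1, an AP-1 subunit, was at 82.6 and 136 CPM in the iDKO-labelled libraries at 52 DPI, against 116 and 335 CPM in their controls, and at 79.2 and 393 CPM in those labelled iDKO at 25 DPI, against 61.8 and 88.9 CPM in control. Nr4a1, an orphan nuclear receptor, was at 835 and 1390.2 CPM with the iDKO label against 1352 and 2686 CPM in control at 52 DPI, and at 620.3 and 2662 CPM with the iDKO label against 279 and 2342 CPM in control at 25 DPI. Both lay below their controls at 52 DPI and above them at 25 DPI, with differences of -2.16 (SE 0.63) for Fosl1 and -1.49 (SE 0.46) for Nr4a1, neither called. DESeq2 called 0 members of this list. Ptgs2, Csrnp1 and Sik1, which were called with a lower effect, are not on it. The count of 0 thus depends on which genes the list held, and does not set the called genes apart from early response genes. The part of dissociation in the called genes was not tested. The circadian list had 14 of 19 members lower, against 51.8% of all genes, 5 of them with an unadjusted p under 0.05, with a median of -0.64. Npas2 (-2.09, SE 0.68) and Per1 were among those lower, and the repressor Bhlhe41 was higher (2.09, SE 0.70), with Per1 the 1 called member. The clock list median was -0.31 without either replicate 1 library at 25 DPI. In the p53 list 16 of 22 were lower, and the 3 with an unadjusted p under 0.05, Pmaip1 (-1.33), Sesn2 (-1.72) and Plk2 (-1.30), were not called.

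Reversal was also counted without a model. A gene was said to reverse when its log2 ratio passed 1.5-fold one way in both pairs at 52 DPI and the other way in both pairs at 25 DPI. That held for 85 genes that were higher in the library labelled iDKO at 52 DPI and lower at 25 DPI (0.493%) and for 31 in the opposite order (0.18%), 116 in all, and with any fold for 1404 (8.14%) and 1449 (8.4%). With a fold of 2 the total was 15. Among protein-coding genes whose mean log2 CPM was 1 or more the counts were 17 and 9, of which DESeq2 called 5 and 8. Without 1 library, and so with that pair dropped, 215 to 617 genes met the rule. Rassf2, Wipf1 and Aatk were in the first group and were not called. Wipf1, which binds the actin regulator WASP in blood cells, was at 6.41 and 24.7 CPM in the iDKO-labelled libraries at 52 DPI, against 3.11 and 3.84 CPM in their controls, and at 1.82 and 3.96 CPM in those labelled iDKO at 25 DPI, against 3.66 and 6.29 CPM in control. Slc39a4, the zinc importer ZIP4, was at 2.95 and 3.27 CPM in the iDKO-labelled libraries at 52 DPI, against 1.48 and 0.784 CPM in their controls, and at 1.14 and 1.12 CPM in those labelled iDKO at 25 DPI, against 5.03 and 2.502 CPM in control. Slc39a4 showed groups without overlap at both times and in opposite order, at a low level, with a difference of 3.07 (SE 0.77). In the second group all 8 genes called by DESeq2 were Thbs1, Ptgs2, Epgn, Ch25h, Flvcr1, Sik1, Slc25a25 and Arl5b, and Col4a4, a chain of basement membrane collagen, was the uncalled one, with a difference of -2.68 (SE 0.82).

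Of the 17 tested genes of the hair shaft and inner root sheath 15 had a difference above 0, against 48.2% of all genes, with a median of 1.71, and 1 had an unadjusted p under 0.05. The median difference was 0.70 in the replicate 1 libraries and 1.98 in the replicate 2 libraries. At 52 DPI the median log2 pair ratio was -0.14 in replicate 1 and 2.48 in replicate 2. Krt35, a hair keratin, was at 71.9 CPM in iDKO replicate 2 at 52 DPI and at 0 to 3.07 CPM in the other 7 libraries. In the sebaceous gland list 4 of 17 members had an unadjusted p under 0.05, all upward, against 2.8% of all genes. The median was 1.75 in the replicate 1 libraries and -0.10 in the replicate 2 libraries. Fabp5, a fatty acid binding protein also made by keratinocytes, was at 138 and 473 CPM in the iDKO-labelled libraries at 52 DPI, against 56.9 and 95.2 CPM in their controls, and at 505 and 81.5 CPM in those labelled iDKO at 25 DPI, against 751 and 60.2 CPM in control. Its groups stood apart at 52 DPI only, where DESeq2 called it (adjusted p = 0.0050), and its difference of 1.86 (SE 0.50) was not called. Mgst1, a microsomal glutathione transferase, was at 60.9 and 112 CPM with the iDKO label against 32.2 and 22.3 CPM in control at 52 DPI, and at 166 and 22.4 CPM with the iDKO label against 602 and 19.0 CPM in control at 25 DPI (difference 2.43, SE 0.78, not called). Of 30 ribosomal protein genes 28 had a difference above 0, against 48.2% of all genes, with a median of 0.15, and 0 had an unadjusted p under 0.05.

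Across all 17258 genes the differences in the 2 replicate numbers correlated weakly (Pearson's r 0.22, Spearman's rank correlation 0.20), with the same sign in 56.1% of genes. The genotype ratios of the 2 pairs correlated at 0.24 at 52 DPI and at 0.01 at 25 DPI, and the genotype effects at 52 and 25 DPI, which share no library, at -0.07. These are correlations across genes, which are not independent replicates. The SD of the log2 ratios over genes was 0.55 and 0.93 for the pairs at 52 DPI and 1.04 and 0.66 for those at 25 DPI. In the plot of both replicate numbers 29 of the 30 T cell genes lie above 0 on both axes. The 25 called genes with a lower effect lie below 0 on both, Gm8210 only just so in replicate 1 (-0.08). These were called on the same differences, so their place was largely fixed by the choice.

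**Figure D4:**
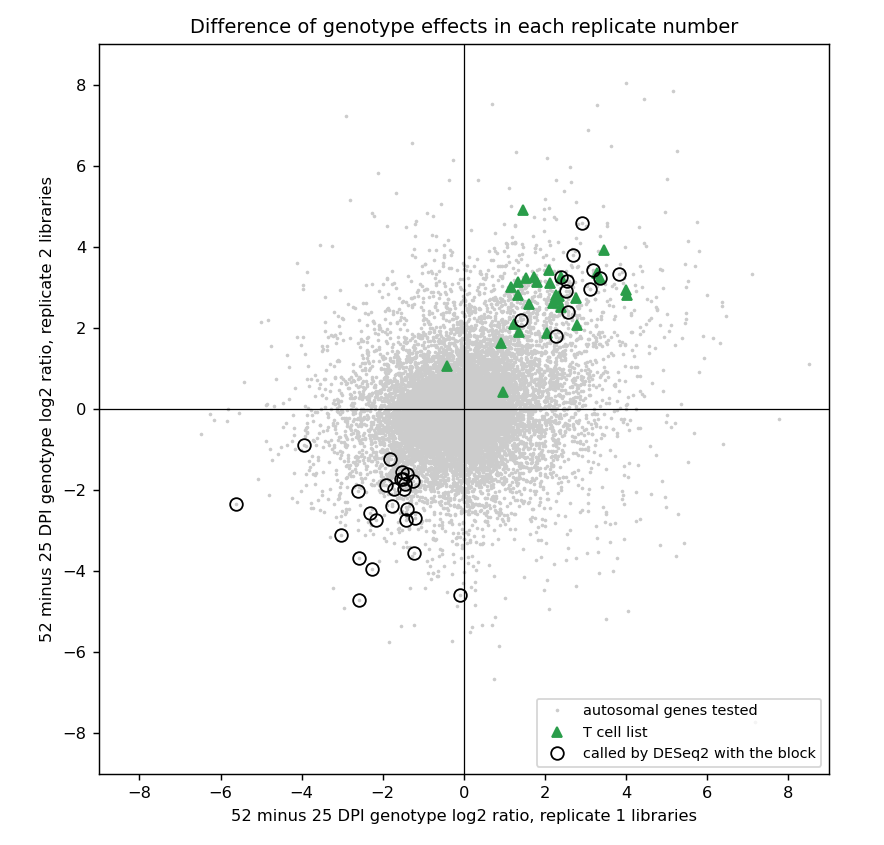
Difference of the log2 genotype ratio, 52 minus 25 DPI, in the replicate 1 libraries (horizontal axis) and in the replicate 2 libraries (vertical axis), for each autosomal gene tested (grey). Green triangles are the T cell list, and circles the 37 genes called by DESeq2 with the blocks. Of the 30 T cell genes 29 lie in the upper right field, and all 37 circles lie in the upper right or lower left.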

How the data were processed

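The authors deposited unnormalized gene counts, with a table for each library that lists 54838 genes in 3 columns laid out as STAR writes them, one without regard to strand and one per strand. The tools in the submitters' processing notes are STAR 2.5.2a, DESeq2 1.24.0, Trimmomatic 0.35 and FastQC 0.11.9, and the builds GRCm38 and mm10, with no settings given in the sources used here. Trizol extraction and a SMART-seq v4 kit are named per the labels' protocols. The unstranded column was used. On the second strand lay 95.37% to 95.73% of stranded counts in replicate 2 libraries and 49.76% to 49.97% in replicate 1 libraries. Without strand a gene and its antisense partner cannot be told apart, and near-identical genes may share reads.

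Identifiers matched the GENCODE annotation (GRCm38) for 54809 genes, 50502 of them autosomal. Genes were filtered with edgeR's filterByExpr, scaled by TMM and fitted with edgeR 4.0.16 (R 4.3.3) quasi-likelihood, with 1 block per time and replicate number and 1 genotype term per time. P-values were adjusted by Benjamini-Hochberg over all 17839 tested genes, and autosomal genes are reported. DESeq2 1.42.0 and limma 3.58.1 voom with the same blocks were alternatives, besides no block, other scalings and filters, the second-strand column and leaving out each library. Pair ratios are of log2 CPM with a prior count of 2. Promoter windows were searched for motifs on both strands. The scripts were tested on simulated data. The labels number replicates 1 and 2 in each group, and libraries were paired by number. Deviations from the group means correlated between groups (r 0.395 to 0.793 over 6 comparisons of groups). Strandedness follows the replicate number in every group, so its part in these correlations cannot be told apart. P-values measure the spread between pairs, which may be in part technical.

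Members, the 43 gene lists and the rules were chosen with earlier results of these data known. Genes named are Ovol1 and Ovol2, up to 10 per direction by p among coding genes whose mean log2 CPM was 1 or more and whose sign was shared by both replicate numbers, up to 10 per direction called by DESeq2, up to 8 reversing genes per direction, and up to 3 members per list. Others are said to be picked after their values were seen. A called gene and a list member that the rule names are not reported here, but are kept in the counts.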

Additional observations from a re-analysis of the deposited data

Results flagged for a closer look

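These genes stand out because the genotype effect differed between 52 and 25 DPI in a test of the difference itself, DESeq2 with the pairs as blocks and an adjusted p under 0.05. Values are DESeq2's log2 difference of the genotype effect, 52 minus 25 DPI. Below 0, genes of matrix, lipid mediators and growth factor signals had values of Thbs1 -3.06, Itgb6 -1.87, Ptgs2 -3.13, Ch25h -3.69 and Epgn -2.45. Genes of innate sensing and of NF-kappaB and its brakes had values of Nod2 -3.13, Tnfaip3 -2.39, Nfkbiz -1.52, Icam1 -1.95 and Zc3h12a -1.94. For transcription regulators, kinases and the clock the values were Csrnp1 -2.09, Sik1 -1.90, Klf16 -1.66, Per1 -1.55, Taf4b -1.65 and Midn -1.52. Carriers, a small GTPase and a poly(A) polymerase had Flvcr1 -2.30, Slc25a25 -2.10, Arl5b -1.63 and Tent5b -2.44. The class I-like gene and the neuropeptide receptor had Mill1 -1.53 and Npy1r -4.30. The pseudogene, the miRNA gene and the lincRNA had Gm8210 -4.50, Gm24245 -3.69 and Gm26809 -1.75.

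Above 0, genes known from lymphocytes or other blood cells had values of Cd3d 2.82, Cd69 3.04, Cxcr6 3.29, Ms4a4b 3.66, Tcrg-C2 3.29, Klrd1 2.49, Ltb 3.73 and Rac2 3.31. The others were Fxyd5 2.71, Rinl 2.84 and Ifi27l2a 2.07. edgeR called 0 of these genes at an adjusted p under 0.05. In Gm8210 the replicate 1 libraries held 0 to 2 counts, and in Gm24245 the replicate 2 libraries 0 to 4. None of the 37 was called by DESeq2 with no replicate block, or without iDKO replicate 2 or control replicate 2 at 52 DPI, and 16 to 32 of them were called without one of the other libraries.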

How the results depend on the processing

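With 4 pairs and 2 residual degrees of freedom, whether single genes were called depended on the tool and on single libraries. Left-out libraries drop their pair, and the lone pair of that time is then assumed to vary like the other time's. edgeR's count for the difference, 0, was 26 with no filter on low counts, of which 25 were also tested with it, 37 by DESeq2 with the blocks, and 0 to 202 with 1 library left out (202 and 188 without iDKO or control replicate 1 at 52 DPI). At an unadjusted p under 0.05 edgeR counted 1097. At 52 DPI, where edgeR also called 0, the count was 33 with no filter, 35 by DESeq2 with the blocks, 1 by DESeq2 without them, and 0 to 153 with 1 library left out, against 745 at an unadjusted p. At 25 DPI, again 0 by edgeR, it was 55, 96 and 2 under the same alternatives, 0 to 104 with 1 library left out, and 1135 at an unadjusted p. DESeq2's 37 became 0 with no replicate block and 0 to 619 with 1 library left out, an alternative chosen after seeing the data. Without the replicate block edgeR called 0 in each of the 3 comparisons.

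The 116 reversing genes became 15 at a fold of 2, 2853 at any fold, 65 with a prior count of 5, 175 with no filter, 48 with a stricter one and 215 to 617 with 1 library left out; fewer pairs or weaker limits admit more genes by construction. The T cell median of 2.46 was 1.48 to 3.54 with 1 library left out and 2.73 with no replicate block. The basal keratinocyte median of -1.15 was -0.85 with no replicate block in edgeR and in DESeq2, -0.88 with the block across both times and -1.80 to -0.67 with 1 library left out. The early response median was -0.87 to -0.39 and that of type I interferon 0.15 to 0.91 with 1 library left out. The circadian median of -0.64 was -0.38 in the replicate 2 libraries alone and -0.83 to -0.31 with 1 library left out. Ovol1's -0.84 ran from -2.01 to 0.39 with 1 library left out, at 0.39 without iDKO replicate 2 at 25 DPI and 0.33 without control replicate 2 at 25 DPI. Of 2171 values for 114 named genes 2169 kept their direction. Apart from Ovol1 and Ovol2, these genes were chosen by their difference in the same libraries. Their direction was thus largely fixed by that choice. Over all genes the 2 replicate numbers shared the sign of the difference in 56.1%. Upper quartile scaling moved the median of all genes from -0.03 to 0.07. The causes were not tested. Depth limits genes of few counts such as Krt35, Gm8210 and Slc39a4.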
